A study of Mus musculus with 2 samples.

Results

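Of the 32285 genes listed in the deposited tables, 6 are described here, chosen by symbol and not by their values: Cnr1, Dagla, Daglb, Napepld, Mgll and Faah. All were detected in both samples, and all passed the filter on low counts. The samples were 2 fresh-frozen brain sections, 10 µm thick, of wildtype C57BL/6 mice, with no treatment or transgene named, which carry the label ZT12 (a zeitgeber time, the usual count of hours since lights on) and are numbered as replicates 1 and 2. They form 1 group, so the comparisons below are between areas of the tissue and not between conditions. The labels give neither age nor whether the sections came from separate animals, so variation between the sections may be technical. The p-values rest on how much the differences between areas vary between these 2 sections. Their estimate of spread also draws on all tested genes. The study set out to describe how gene and protein levels differ between brain regions.

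RNA was measured with 10x Visium, in which a section lies on a slide of barcoded spots. The RNA under a spot, which may come from several cells or parts of cells, is given as counts of unique molecular identifiers (UMIs), which stand for captured RNA molecules.

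Endocannabinoids are lipid messengers that neurons make from their membranes when they are active. At many synapses the receiving cell releases 2-arachidonoylglycerol (2-AG), which travels back to the axon terminal and lowers transmitter release through the CB1 receptor, the product of Cnr1. Diacylglycerol lipases α and β (Dagla, Daglb) make 2-AG and monoacylglycerol lipase (Mgll) breaks down most of it. NAPE-PLD (Napepld) is one of the enzymes that make anandamide and related N-acylethanolamines, which fatty acid amide hydrolase (Faah) degrades. In the forebrain, CB1 is known to be especially abundant in interneurons that also make cholecystokinin, and present at lower levels in many glutamatergic neurons. RNA lies mostly in cell bodies, so a spot's RNA level does not show where the receptor protein on distant axon terminals lies.

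A minimum of 500 UMIs left 3030 of the 3167 spots of section 1 and 2531 of the 2533 spots of section 2, with a median of 18127 and 21555 UMIs per spot. Each spot was placed in the anatomical group whose marker genes scored highest in it, or left without a group. Groups that reached 30 spots in both sections were tested. These 14 groups held 67.9% of the kept spots of section 1 and 75.4% of section 2. Every one of their markers was higher than in the other kept spots of the same section. The same markers placed the spots, so their higher levels are no separate check of the groups. The groups are areas rich in those markers and not pure cell types. Spots of cerebellar cortex (174 and 4) and hindbrain (160 and 10) were nearly all in section 1 and were not tested. The superficial isocortex group differed in makeup between the sections: Lamp5 stood at 341 and 90.3 counts per 1000000 UMIs (CPM) in sections 1 and 2, and Otof at 14.4 and 59.1 CPM. So did the hypothalamus group, where the neuropeptide gene Pmch stood at 564 and 0.388 CPM, the latter close to the level of the other kept spots of section 2. The striatum group had 45 spots with a median of 6881 UMIs in section 1 and 274 spots with a median of 22484 UMIs in section 2. The sections share 1965 spot barcodes, which on these slides mark positions and not cells.

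The 6 genes lie at 6 separate positions of the mouse genome (RefSeq, GRCm38.p6). Cnr1 (ENSMUSG00000044288) lies at chr4:33923171-33948831 and Faah (ENSMUSG00000034171) at chr4:115996668-116018837. Napepld (ENSMUSG00000044968) lies at chr5:21662901-21701622 and Daglb (ENSMUSG00000039206) at chr5:143464484-143504442. Mgll (ENSMUSG00000033174) lies at chr6:88724412-88828360 and Dagla (ENSMUSG00000035735) at chr19:10245265-10304877. Genes annotated as long non-coding RNAs overlap Mgll (Gm26588) and Dagla (Gm30042), and how reads from the overlaps were counted was not examined.

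RefSeq's table of promoters matched 5 of the 6 genes, with 8 start sites. In the 250 bases before each start, CpG pairs (a C followed by a G) were more frequent than the median of 6 over 32851 promoters at 7 of the 8 starts. The exception was the most downstream of the 3 Cnr1 starts, with 5 pairs; the other Cnr1 starts had 36 and 28, Mgll 23 and 40, Napepld 21, and Faah and Daglb 9 each. The TATA motif TATAAA was at none of the 8 starts on either strand, against 12.4% of all promoters, and CCAAT also at none, against 33.8%. The sequences before the most upstream of the 3 listed Cnr1 starts (chr4:33924014-33924263, plus strand) and the Napepld start (chr5:21701623-21701872, minus strand) are shown. These 2 genes were chosen because they were called in opposite directions in thalamus. The Cnr1 stretch lies inside the span given above for its gene, and the Napepld stretch lies just outside its gene. Both are rich in CpG pairs, which are in capitals. The counts do not show which Cnr1 start was used.
Cnr1: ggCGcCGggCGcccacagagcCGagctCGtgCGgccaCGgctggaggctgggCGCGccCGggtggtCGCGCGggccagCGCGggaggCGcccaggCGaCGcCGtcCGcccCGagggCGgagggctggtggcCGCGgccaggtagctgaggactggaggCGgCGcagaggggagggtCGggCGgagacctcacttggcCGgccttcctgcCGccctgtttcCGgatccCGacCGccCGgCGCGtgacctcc
Napepld: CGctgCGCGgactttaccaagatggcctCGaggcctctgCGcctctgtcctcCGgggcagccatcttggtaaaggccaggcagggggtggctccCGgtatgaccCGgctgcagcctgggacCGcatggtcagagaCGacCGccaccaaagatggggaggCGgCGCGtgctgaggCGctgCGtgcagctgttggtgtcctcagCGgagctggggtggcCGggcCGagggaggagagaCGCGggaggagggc

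Levels are given as CPM, the UMIs of a gene per 1000000 UMIs of its group in that section, always section 1 first. They are compared between areas, not between genes, since capture differs from gene to gene. In bulk areas such as these, fewer cells of a type and less RNA per cell cannot be told apart.

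Over all kept spots Cnr1 stood at 74.1 and 57.5 CPM (4347 and 3210 UMIs), Dagla at 76.5 and 72.4 CPM, Daglb at 39.1 and 32.8 CPM, Napepld at 13.5 and 10.6 CPM, Mgll at 100.2 and 90.9 CPM and Faah at 67.4 and 70.6 CPM. Faah was the one gene of the 6 that was higher in section 2. Section and Space Ranger version cannot be told apart here. Across the 14 groups, 5 of the 6 genes differed (edgeR quasi-likelihood F test with the section as a block, Benjamini-Hochberg adjusted over 13487 genes), while 53.2% of all tested genes did, so differing among these groups is common. The adjusted p was 5.9e-07 for Cnr1, 2.7e-12 for Dagla, 1.1e-08 for Napepld, 8.1e-05 for Mgll, 1.7e-10 for Faah and 0.105 for Daglb. The ratio of the highest to the lowest group mean was 3.46 for Napepld, 3.09 for Dagla, 2.95 for Cnr1, 2.61 for Faah, 1.71 for Mgll and 1.54 for Daglb.

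**Figure D1:**
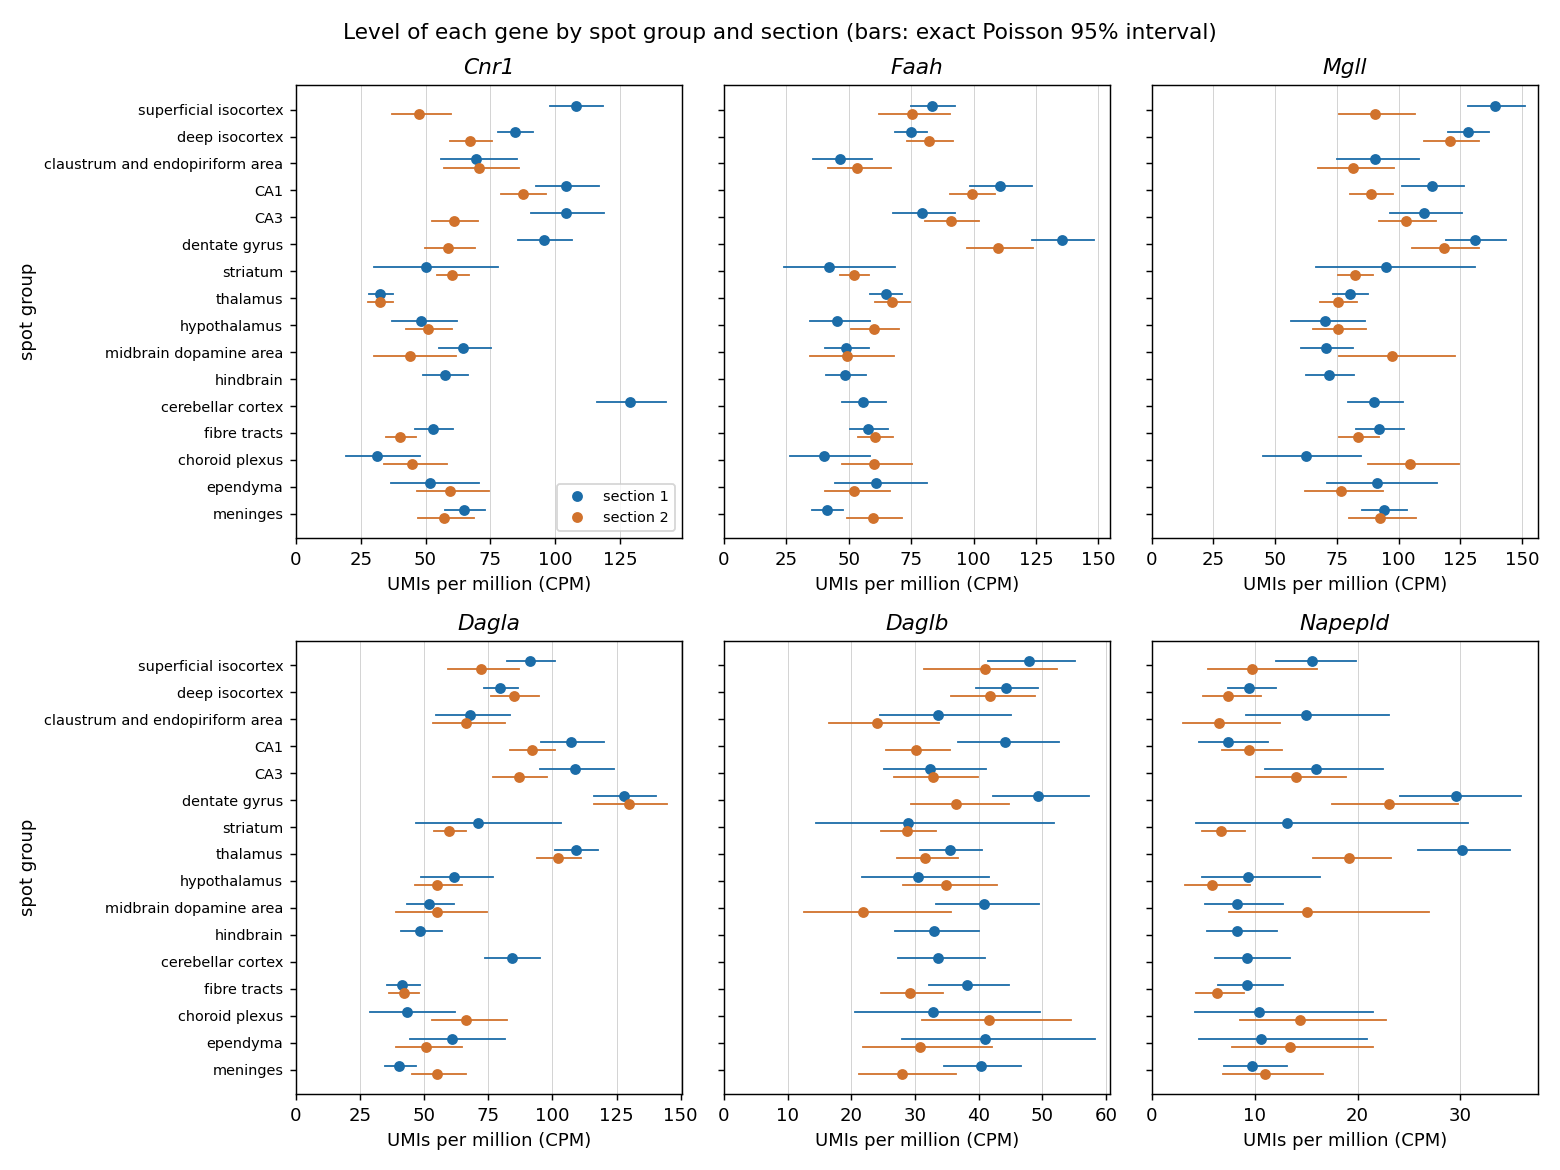
Each panel shows 1 gene, with its level in CPM (horizontal axis) in each anatomical spot group; points are sections and bars exact Poisson 95% intervals, which cover counting error only. The thalamus has the lowest mean Cnr1 level, with 32.6 and 32.4 CPM, and the dentate gyrus the highest mean Dagla level, with 128 and 130 CPM.

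Cnr1, the CB1 receptor gene, was highest on average in CA1 and lowest in thalamus. CA1, the hippocampal field that sends output to cortex, had 104 and 87.5 CPM; CA3 had 104 and 60.8, superficial isocortex 108 and 47.4, dentate gyrus 95.6 and 58.8, deep isocortex 84.5 and 67.2, and claustrum with endopiriform area 69.5 and 70.6 CPM. The rest of the groups followed in descending mean order: meninges (64.8 and 57.1 CPM), ependyma (51.7 and 59.3), striatum (50.0 and 60.3), midbrain dopamine area (64.6 and 43.8), hypothalamus (48.4 and 50.8), fibre tracts (53.0 and 40.3), choroid plexus (31.3 and 44.8) and thalamus (32.6 and 32.4). The ranges of the 2 sections overlapped in 12 of the 13 pairs of neighbours in this order; the exception was the step from claustrum to meninges, so the order within the upper and within the lower part is not resolved. The sections differed most in superficial isocortex, where the Poisson 95% intervals were 98.1 to 118 CPM in section 1 and 37.2 to 59.7 CPM in section 2. In section 1 the 174 cerebellar cortex spots had 129 CPM (376 UMIs, 116 to 143), the highest group value of that section; section 2 had only 4 such spots, with 1 Cnr1 UMI, and no comparison was made.

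Against the mean of the other 13 groups, 3 of the 6 genes were called in thalamus, where 21.4% of all tested genes were. There Cnr1 was lower by 0.95 on the log2 scale (-0.95 ± 0.14, SE, adjusted p = 1.7e-06), lower in both sections and under every alternative run. In CA1, where 11% of genes were called, Cnr1 was higher (log2 fold change 0.69 ± 0.12, adjusted p = 1.0e-04), also in each section and under every alternative. In superficial isocortex, where 15.9% of genes were called, the Cnr1 difference of 0.43 ± 0.13 (adjusted p = 0.0250) rested on section 1: without that section's sum of the group it was -0.24 (adjusted p = 0.776). It also missed the threshold with DESeq2 (0.35, adjusted p = 0.266) and without the section term (0.43, adjusted p = 0.282). The part of the differing makeup of this group in the 2 sections was not tested. CA3 (0.41, adjusted p = 0.126), deep isocortex (0.31, 0.0619) and dentate gyrus (0.31, 0.0966) were above the mean without passing the test.

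Some interneuron markers were also lower in thalamus. Of 6 genes listed for interneurons from the caudal ganglionic eminence (CGE), the class that holds most cortical cells with abundant CB1, 1 was higher and 4 were lower there (median log2 fold change -0.88), while their summed level was 185 and 186 CPM, against 180 and 194 CPM in deep isocortex and 280 and 202 CPM in superficial isocortex. Vip, a marker of one CGE class, was at 8.20 and 11.0 CPM in thalamus against 42.3 and 37.0 CPM in deep isocortex, whereas Adarb2 was at 51.2 and 48.9 against 9.63 and 15.1 CPM. None of the listed markers was at 0. Of 5 genes for interneurons from the medial ganglionic eminence (MGE), none was higher and 4 were lower in thalamus (median -0.50), with sums of 469 and 615 CPM against 679 and 773 CPM in deep isocortex. Their part in the Cnr1 difference was not tested.

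Dagla, the diacylglycerol lipase of the synapse, was highest in dentate gyrus (128 and 130 CPM), ahead of thalamus (109 and 102), CA1 (107 and 92.0) and CA3 (109 and 86.9). The dentate values lay above every other group in both sections. Deep (79.7 and 85.0 CPM) and superficial isocortex (91.3 and 72.1) came next, then claustrum (68.0 and 66.3), striatum (71.1 and 59.9), hypothalamus (61.7 and 55.0), ependyma (61.0 and 50.6), choroid plexus (43.3 and 66.4), midbrain dopamine area (51.9 and 54.8) and meninges (40.4 and 55.1). Fibre tracts had the lowest mean, with 41.5 and 41.9 CPM. Neighbours in this order overlapped in 10 of 13 pairs.

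Dagla and Faah were each called in 7 of the 14 groups, against 4 for Napepld, 3 each for Cnr1 and Mgll and 0 for Daglb. Dagla was higher in dentate gyrus (0.90 ± 0.09, adjusted p = 5.0e-10, 19% of genes called), thalamus (0.67 ± 0.08, 4.1e-08) and CA1 (0.53 ± 0.09, 5.8e-05), and lower in fibre tracts (-0.71 ± 0.10, 1.3e-06, 25.8% of genes called). Those 4 differences had the same direction in each section and held under every alternative run. CA3 was also higher (0.49 ± 0.10, 0.00156), among 2.73% of genes called there, but not without the section 1 sum (0.34, 0.442). Meninges were lower (-0.66 ± 0.11, 2.6e-05, 18.1% of genes called), but not without their section 1 sum (-0.36, 0.338). The midbrain dopamine area was lower near the threshold (-0.46 ± 0.13, 0.0443, 3.99% of genes called), and this call held under 7 of 12 alternatives. It was lost without the sum of either section (-0.38 and -0.49), with DESeq2 and without the section term, among others.

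Fibre tracts, the bundles of myelinated axons, had all 8 microglial, 5 of 6 astrocyte and all 6 endothelial genes higher than deep isocortex, none of which placed spots in a group. The 5 oligodendrocyte genes summed to 7444 and 7390 CPM there, against 1376 and 1771 CPM in deep isocortex, but 4 of them are markers that defined the fibre tract group, so their sum is no finding. Against deep isocortex, 3 of the 6 genes were lower in fibre tracts, where 34.4% of tested genes differed. They were Dagla (-0.87 ± 0.13, adjusted p = 1.1e-06), Cnr1 (-0.60 ± 0.17, 0.00535) and Mgll (-0.40 ± 0.13, 0.0119). The Dagla call held under every alternative. The Cnr1 call held under 10 of 13 alternatives. Its losses included DESeq2 (-0.60, 0.0627) and the fit without the section 2 sum of fibre tracts (-0.57). The Mgll call held under 9 of 13. Its losses included DESeq2 (-0.39, 0.0602) and the fits without either section's sum (-0.41 and -0.38). Faah (-0.30, 0.0597), Daglb (-0.25, 0.182) and Napepld (-0.03, 0.939) did not pass. The part of these glial and vascular markers in the differences was not tested.

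Daglb, the diacylglycerol lipase that is prominent in microglia and macrophages, had the smallest ratio of highest to lowest group mean. Its means ran from 47.9 and 40.9 CPM in superficial isocortex to 33.6 and 24.0 CPM in claustrum, all 13 pairs of neighbours overlapped, and it passed the test in 0 of the 14 groups (edgeR). The closest were deep isocortex (0.26 ± 0.10, adjusted p = 0.0709) and superficial isocortex (0.30 ± 0.12, 0.0892). In fibre tracts, with more microglial RNA, it stood at 38.1 and 29.3 CPM (log2 fold change -0.01 ± 0.11, 0.960).

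The 2 lipase transcripts were also set against each other within each group. Dagla made up 66.2% and 68.8% of their joint UMIs over all kept spots. The share was 75.5% (72.5 to 78.3, exact binomial 95% interval) and 76.4% (73.1 to 79.4) in thalamus, and 72.1% (68.4 to 75.6) and 78.0% (73.8 to 81.9) in dentate gyrus. It was 52.1% (46.4 to 57.8) and 58.9% (53.5 to 64.1) in fibre tracts. The intervals of fibre tracts lay below those of thalamus and dentate gyrus in both sections. In meninges the sections parted, with 50.0% (44.7 to 55.3) in section 1 and 66.3% (58.5 to 73.4) in section 2. The intervals cover counting error only, and a share of UMIs is not a ratio of molecules, since the genes may be captured unequally.

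**Figure D2:**
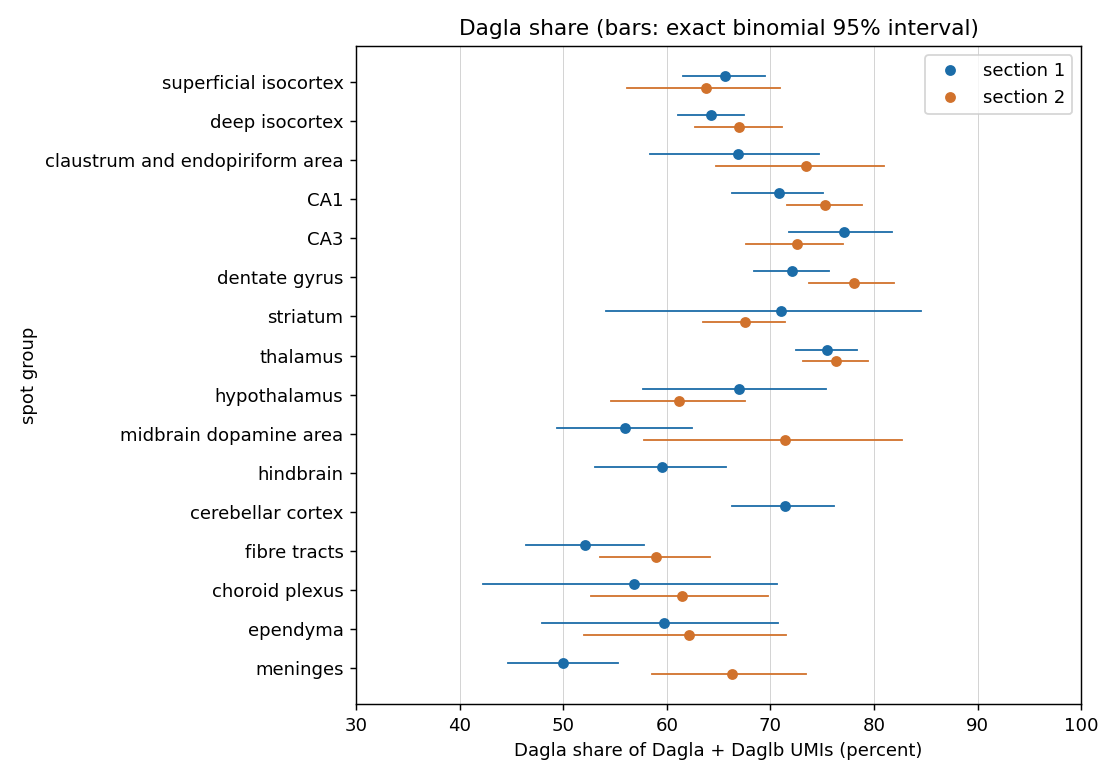
Share of Dagla among the Dagla and Daglb UMIs (percent, horizontal axis) in each spot group; points are sections and bars exact binomial 95% intervals. Fibre tracts (52.1% and 58.9%) lie to the left of thalamus (75.5% and 76.4%) in both sections.

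Napepld, the anandamide-route enzyme gene, had few UMIs (793 and 593 in all kept spots) and was highest in 2 groups. Dentate gyrus had 29.6 and 23.0 CPM (103 and 58 UMIs) and thalamus 30.1 and 19.2 CPM (180 and 105 UMIs). The next, CA3, had 16.0 and 14.0 CPM, and the other 11 groups had means between 12.7 CPM in superficial isocortex and 7.59 CPM in hypothalamus. Thalamus and dentate gyrus overlapped each other, and both lay above every other group in both sections. Napepld was higher in dentate gyrus (1.23 ± 0.16, adjusted p = 4.1e-07) and thalamus (1.20 ± 0.14, 1.1e-08), in each section and under each alternative that tested it; a filter of at least 10 counts in every sum removed it. It was lower in deep isocortex (-0.50 ± 0.18, 0.0475, 20.5% of genes called) and fibre tracts (-0.53 ± 0.20, 0.0480). Deep isocortex kept its call under 4 of 12 alternatives and fibre tracts under 8 of 12. Both calls were lost without either section's sum of the group, among others. Those fits gave -0.52 and -0.48 in deep isocortex and -0.65 and -0.42 in fibre tracts.

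Within the hippocampus Napepld separated the dentate gyrus from CA1. CA1 had 7.42 and 9.42 CPM, and its difference from dentate gyrus was -1.53 ± 0.24 (adjusted p = 3.5e-05). It was the 1 gene of the 6 called in that pair, where 4.69% of tested genes were, and the call held under each alternative that tested it. Between CA1 and dentate gyrus, Cnr1 (0.35 ± 0.17, 0.312), Dagla (-0.35 ± 0.12, 0.0951), Mgll (-0.29 ± 0.13, 0.275) and Faah (-0.22 ± 0.12, 0.396) did not pass. Between CA3 and CA1 0 of the 6 genes passed with edgeR, where 1.19% of tested genes did, and 0 with DESeq2. An unadjusted edgeR p under 0.05 was reached by 2, Napepld (0.76 ± 0.27, adjusted p = 0.223) and Faah (-0.29 ± 0.13, 0.412). Of all 13487 tested genes, 1388 reached it.

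Mgll, whose product ends most 2-AG signalling, was highest in dentate gyrus (131 and 118 CPM), deep isocortex (128 and 121 CPM) and superficial isocortex (139 and 90.3 CPM). CA3 had 110 and 103 CPM and CA1 113 and 88.8 CPM. The other 9 groups had means from 93.3 CPM in meninges to 72.9 CPM in hypothalamus, and all 13 pairs of neighbours overlapped. It was higher in deep isocortex (0.42 ± 0.09, adjusted p = 5.4e-04), though without the section 1 sum the adjusted p was 0.0544 (0.44). In dentate gyrus it was higher (0.40 ± 0.10, 0.00306), and without the section 1 sum this missed the threshold (0.38, 0.136), as it did without the section term (0.40, 0.0615). In superficial isocortex the difference (0.34 ± 0.10, 0.0165) rested on section 1, since without that sum it was -0.03. That call held under 8 of 13 alternatives, and DESeq2 was among those where it was lost. The thalamus value was below the mean without passing (-0.26 ± 0.10, 0.0547).

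Faah, which degrades anandamide, was highest in dentate gyrus (136 and 110 CPM) and CA1 (111 and 99.3 CPM). CA3 (79.4 and 90.8 CPM), superficial (83.4 and 75.4) and deep isocortex (74.8 and 82.2) came next, then thalamus (64.7 and 67.2) and fibre tracts (57.8 and 60.6). The lowest mean was in striatum, with 42.1 and 52.0 CPM. It was higher in dentate gyrus (0.95 ± 0.09, adjusted p = 3.1e-10) and CA1 (0.72 ± 0.09, 4.3e-07), in each section and under every alternative. The other differences were smaller or less stable. CA3 (0.40 ± 0.10, 0.0210), deep isocortex (0.26 ± 0.09, 0.0332) and striatum (-0.40 ± 0.12, 0.0491, 5.74% of genes called) each missed the threshold with DESeq2, without the section term and without either section's sum of the group. Of 13 alternatives, their calls held under 8, 7 and 7. Without the section 1 and the section 2 sum, CA3 gave 0.46 and 0.32 (0.174 and 0.547), deep isocortex 0.31 and 0.22 (0.244 and 0.253) and striatum -0.35 and -0.75 (0.164 and 0.516). Superficial isocortex (0.31 ± 0.10, 0.0382) kept its call under 7 of 13 alternatives and missed it with DESeq2 (0.29, 0.126), without the section term (0.29, 0.243) and without the section 1 sum (0.15, 0.836), among others. Meninges (-0.47 ± 0.11, 0.00296) kept it under 11 of 13, the exceptions being the fits without the section term (-0.43, 0.0600) and without the section 1 sum (-0.19, 0.728).

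**Figure D3:**
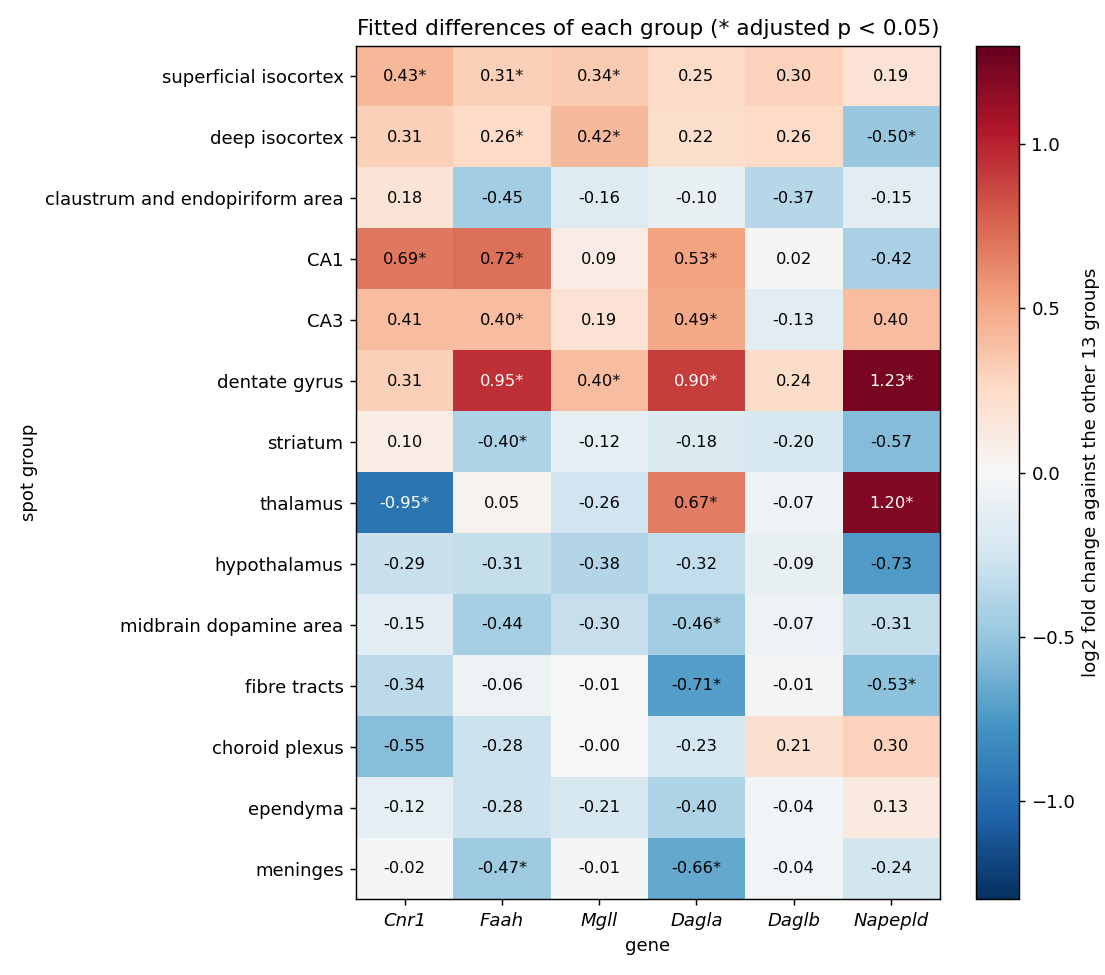
Fitted log2 fold change of each gene (columns) in each spot group (rows) against the mean of the other 13 groups, in colour and as a number; an asterisk marks an adjusted p under 0.05. The dentate gyrus has 4 called genes, all higher, and Cnr1 and Napepld are called in opposite directions in thalamus (-0.95 and 1.20).

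Seen by group, the dentate gyrus had 4 called genes (Faah, Dagla, Napepld and Mgll, all higher, among 19% of all genes called), and the median of the 6 genes was 0.65, against -0.02 over all tested genes. CA1 (11% of genes called) and superficial isocortex (15.9%) had 3 higher each, deep isocortex (20.5%) and thalamus (21.4%) 2 higher and 1 lower each, and CA3 (2.73%) 2 higher. Fibre tracts (25.8%) and meninges (18.1%) had 2 lower each, and striatum (5.74%) and midbrain dopamine area (3.99%) 1 lower each. With edgeR, as with DESeq2, 0 of the 6 were called in hypothalamus (2.17% of genes called), ependyma (4.13%), choroid plexus (9.67%) and claustrum with endopiriform area (0.245%). At an unadjusted edgeR p under 0.05 these groups had 4, 1, 1 and 2 of the genes. Of all 13487 tested genes, 1686, 1975, 2793 and 930 were under that limit in the same groups. Of the 24 calls, 10 held under every alternative run for them: the 3 in CA1, the 3 in thalamus, Faah, Dagla and Napepld in dentate gyrus, and Dagla in fibre tracts.

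Striatum, whose projection neurons release GABA, was set against thalamus, whose relay neurons release glutamate. Striatum had more Cnr1 than thalamus (0.98 ± 0.20, adjusted p = 4.2e-04) and less Dagla (-0.79 ± 0.14, 3.7e-05) and Napepld (-1.64 ± 0.26, 7.8e-06), in a pair where 14.5% of tested genes differed. In section 1 the striatum sum held only 19 Cnr1, 27 Dagla and 5 Napepld UMIs. Without the section 2 sum of striatum the calls were lost, with log2 fold changes of 0.31, -0.74 and -1.19. The Cnr1 call held under 11 of 13 alternatives. Against deep isocortex, striatum had less Faah (-0.61 ± 0.15, 0.00413) and Mgll (-0.50 ± 0.14, 0.0202), where 8.85% of genes differed. Without the section 2 sum these were -0.96 and -0.54 (0.229 and 0.492). Mgll also missed the threshold with DESeq2 (-0.49, 0.0969). Of 13 alternatives, the Faah call held under 11 and the Mgll call under 9. Between superficial and deep isocortex 0 of the 6 genes passed with edgeR (1.63% of genes called) or DESeq2. An unadjusted p under 0.05 was reached by 1, Napepld (0.63 ± 0.26, adjusted p = 0.331), and by 1284 of all 13487 tested genes.

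Cnr1 also varied within the isocortex. Its superficial and deep spots were split in each section into the 25% of spots with the highest score for a list of cell type markers and the remaining spots. In the spots richest in CGE interneuron markers Cnr1 stood at 119 CPM (352 UMIs, 107 to 133, exact Poisson 95% interval) against 83.8 CPM (77.8 to 90.3) in the remaining spots of section 1. In section 2 it was 68.8 CPM (104 UMIs, 56.2 to 83.3) against 58.8 CPM (51.5 to 66.9), intervals that overlap. The difference was 0.43 ± 0.09 (adjusted p = 0.00512, edgeR), and it came mostly from section 1 (0.50 in section 1 alone, 0.21 in section 2 alone). The fit has 4 sums and 1 residual degree of freedom, so its spread was taken largely from all genes.

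Cnr1 was 1 of 9 genes called in this split, 0.0735% of 12237 tested. The others, listed after their values were seen, included the neuropeptide genes Crh (1.48), Tac2 (1.38), Cort (0.72) and Cck (0.14), the last being cholecystokinin. Cck was abundant in these spots (average log2 CPM 9.94) and its change was small. Which cells the RNA of these neuropeptide genes came from was not tested, nor whether the rich spots differed in CGE cells only. Atp2b4 (0.26) and Nptxr (0.17) were also higher, and Ptgds (-0.18) and Pcp4 (-0.14) lower. The Cnr1 call was lost with DESeq2 (0.38, adjusted p = 1), without the section term (0.41, 1) and when the top 50% by score were taken (0.23, 0.674), and it held for the top 10% (0.79, 3.1e-07). The 6 listed markers summed to 373 and 331 CPM in the rich spots against 162 and 145 CPM, and the median UMIs per spot were 31784 and 28765 against 30364 and 25156.

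The same split by MGE interneuron markers gave no Cnr1 call. Cnr1 stood at 99.8 against 90.8 CPM in section 1 and at 65.5 against 60.1 CPM in section 2 (0.13 ± 0.09, adjusted p = 0.823, 0.368% of genes called). The difference between the CGE and MGE results was not tested. None of the other 5 genes passed in the CGE split; Daglb (0.24 ± 0.12, 0.872) and Dagla (0.19 ± 0.09, 0.854) came nearest. With edgeR, as with DESeq2, 0 of the 6 were called in the splits by MGE interneuron, astrocyte (2.8% of genes called), oligodendrocyte (3.26%), microglial (0.0571%) and endothelial markers (0.384%). At an unadjusted edgeR p under 0.05 these splits had 0, 0, 2, 1 and 2 of the genes. Of all tested genes, 883 of 12212, 1570 of 12235, 1752 of 12059, 797 of 12266 and 998 of 12226 were under that limit.

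**Figure D4:**
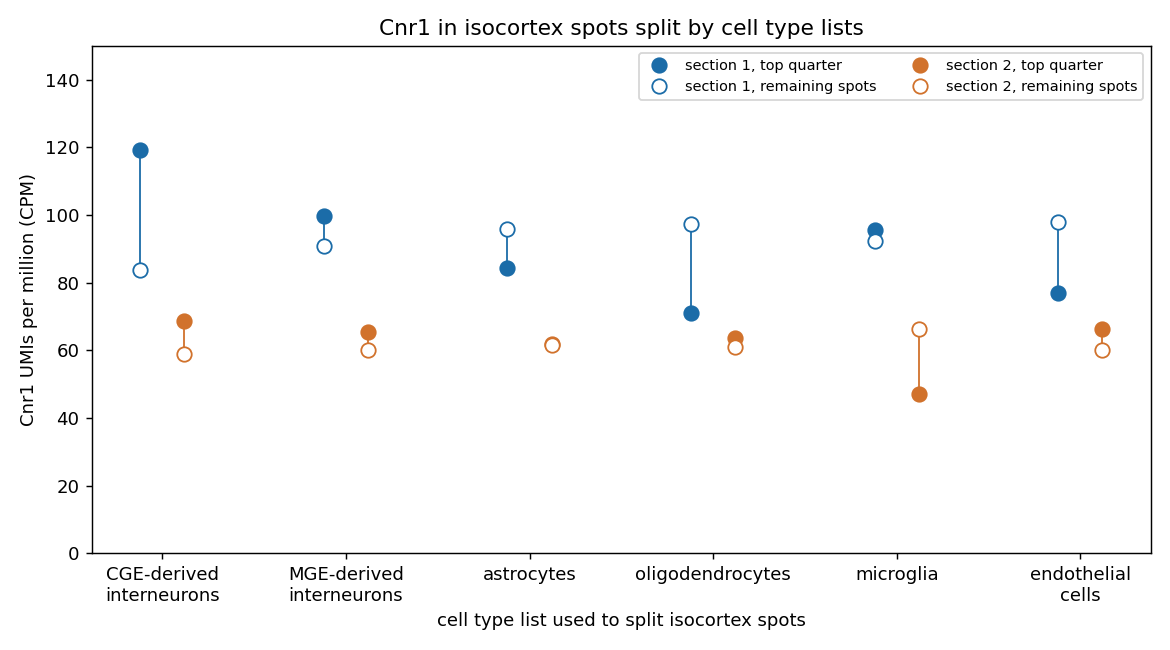
Cnr1 level (CPM, vertical axis from 0) in isocortex spots of the top 25% for each cell type list (filled points) and in the remaining spots (open points), by section, with a line joining the pair. The widest gap is for CGE interneuron markers in section 1 (119 against 83.8 CPM).

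Of 25 other genes of the pathway, 19 could be tested, and 17 of these differed among the groups (53.2% of all genes did). The 6 that were too rare include the cannabinoid receptor CB2 gene Cnr2 (1 and 4 UMIs in all kept spots) and the esterase gene Ces1d (11 and 7). The others are the lipid receptor genes Gpr55 (11 and 5), Gpr18 (0 and 0), Gpr119 (1 and 0) and Trpv1 (4 and 7). For a count of 0, the 1-sided 95% upper limit is about 3 counts. Cnrip1, whose product binds the tail of CB1, had 67.8 and 67.1 CPM. It was higher in CA3 (0.65 ± 0.09, adjusted p = 7.1e-06), CA1 (0.35 ± 0.09, 0.00539) and dentate gyrus (0.29 ± 0.09, 0.0226), and lower in thalamus (-0.26 ± 0.09, 0.0242) and fibre tracts (-0.55 ± 0.10, 3.2e-05).

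In thalamus, where Dagla was high and Cnr1 low, 6 of the 19 pathway genes were higher and 6 lower (21.4% of all genes called). Plcb4, a phospholipase that supplies diacylglycerol downstream of Gq-coupled receptors, was higher (269 and 209 CPM, against 72.2 and 58.5 CPM in deep isocortex, 1.82 ± 0.07, adjusted p = 3.6e-21). The related phospholipase Plcb1 (-0.68 ± 0.13, adjusted p = 1.0e-04), the glutamate receptor Grm5 (-0.37 ± 0.09, 0.00143) and the muscarinic receptors Chrm1 (-0.93 ± 0.14, 2.9e-06) and Chrm3 (-0.52 ± 0.16, 0.0132) were lower. Abhd6, another 2-AG hydrolase, was higher (66.9 and 59.5 CPM, 0.44 ± 0.09, 2.4e-04), while Naaa, an acid amidase for N-acylethanolamines, was lower (-0.68 ± 0.13, 9.8e-05).

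In CA1, 8 pathway genes were higher and 2 lower (11% of all genes called). Ptgs2, the cyclooxygenase that can oxidise 2-AG and anandamide (1.03 ± 0.28, adjusted p = 0.0111), Chrm1 (0.93 ± 0.12, 5.7e-07) and Chrm3 (0.85 ± 0.14, 5.3e-05) led, and Plcb4 (-0.37 ± 0.10, 0.0132) was among the lower ones. In dentate gyrus 4 were higher and 2 lower (19% of all genes called). Chrm1 (0.97 ± 0.12, 1.5e-07), the N-acyltransferase Pla2g4e (0.77 ± 0.25, 0.0283) and Grm5 (0.40 ± 0.09, 0.00109) led the higher ones, and Plcb4 (-0.90 ± 0.12, 2.6e-07) was lowest. CA3 had 2 higher and 0 lower (2.73% of all genes called), Cnrip1 and Ptgs2 (19.8 and 9.44 CPM, 2.09 ± 0.26, 9.6e-07).

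In fibre tracts 2 pathway genes were higher and 6 lower (25.8% of all genes called). Abhd4, a lipase of another route to N-acylethanolamines, was higher (110 and 93.9 CPM, against 40.9 and 43.4 CPM in deep isocortex, 1.02 ± 0.09, adjusted p = 1.6e-11), where Napepld was at 9.21 and 6.34 CPM. Chrm1 (-0.75 ± 0.15, 1.3e-04), Chrm3 (-0.69 ± 0.18, 0.00316) and Cnrip1 were lower, alongside Dagla.

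The likeness of the 6 genes to each other and to other genes was described over the 28 sums (14 groups in 2 sections, centred within each section), which share libraries and tissue, so no test applies. Faah and Dagla were the most alike pair (Pearson r = 0.79), followed by Faah and Mgll (0.69) and Cnr1 and Mgll (0.62). Dagla and Daglb, which make the same product, had r = 0.28, and Cnr1 and Napepld -0.17. Among 5483 or 5484 other genes of at least moderate level, the nearest to Cnr1 were Dlg2 (0.83), Prkca (0.82) and Nrgn (0.82). The nearest to Dagla were Epha4 (0.92), Rnf112 (0.92) and Agtpbp1 (0.90), to Faah Capza2 (0.91), Camta2 (0.89) and Dgkz (0.88), and to Mgll Kalrn, Ppp2r2c and Creg2 (each 0.80). For Napepld they were Btbd3 (0.73), Nsmf (0.71) and Tiam1 (0.70), and for Daglb B230219D22Rik (0.76), Cetn3 (0.68) and Ist1 (0.65).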

How the data were processed

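The deposited values are whole-number UMI counts of each gene in each spot of 2 Visium sections, not normalized. They were made by the authors with Space Ranger, 1.2.2 for section 1 and 2.0.1 for section 2 per the file headers; the submitters' processing notes name 2.0.1 and mm10 for both. The release of the gene annotation was not given in the sources used here. Protein data and spot coordinates were not analysed here, and no doublet caller was run, since spots can hold several cells.

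A spot's score for each of 16 lists (106 marker genes) was the mean z value of log UMIs per 10000. The spot joined the list with the highest score if that was at least 0.3 and exceeded the next by 0.15; 21.1% and 24.1% of kept spots joined none. These limits were set after seeing spot counts and marker levels under several settings, but no value of the 6 genes. The genes and lists were chosen with earlier results of these data known. Groups were built from the same counts that were tested, so calls in general may be too many; the markers themselves were not tested.

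UMIs were summed per section and group (28 sums) and fitted with edgeR 4.0.16 (R 4.3.3): TMM factors, filterByExpr, a section term (same-numbered sums come from the same section, which pairs them) and quasi-likelihood F tests with 13 residual and 22.08 prior degrees of freedom. A gene was called at an adjusted p under 0.05 (Benjamini-Hochberg, over every gene tested in that comparison). SE is the log2 fold change divided by the square root of F. Contrasts share sums and are not independent. Isocortex splits took the top 25% of spots by list score within section and group. The fits were run on data simulated from the fitted model, with 200 genes changed in a single group and all others flat. At a 1.41-fold change 57.5% of these were recovered in thalamus and 47% in superficial isocortex. At a 2-fold change the values were 84.5% and 79%. Between 3.4% and 7.8% of the calls were false. The simulation did not build groups from the tested counts, so it does not cover that problem. Named genes were the 6 genes, all pathway-list genes (values for up to 3 per list and comparison among those called, with 1 listed gene not reported here) and the 3 nearest genes of at least log2 CPM 5. Promoter counts, the marker counts beside results and the genes called in the CGE split were added after seeing the data. Alternatives were DESeq2 1.42.0, no TMM factors, other filters and score limits, a 1000 UMI minimum, no mitochondrial genes, no section term and leaving out each replicate. Leaving out a whole section gave fold changes only, so a call held there if its direction was kept.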

Additional observations from a re-analysis of the deposited data

How the results depend on the processing

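Of 474 values of single calls under the alternatives, 398 were the same, 72 kept direction only and 4 reversed. The same means that direction and side of the threshold were kept. Fits of 1 section alone gave no p-value and were judged by direction only. They gave 32 of the 398 without replicate 1 and 34 without replicate 2. The 5 calls among all groups held throughout. The number of calls of a group against the others, 24 as reported, was 15 with DESeq2, 13 with no replicate block, and 10 and 19 without replicate 1 and 2 of the compared group. In pairs it was 9 as reported, 4 with no replicate block, and 7 and 2 without replicate 1 and 2 of the compared group. These counts can include calls that are not among those reported. Of the 9, 2 held under every alternative. Of the isocortex splits, the 1 call became 0 with DESeq2, with no replicate block and for the top 50% of spots, and 2 with no filter on low counts (the added call was Faah, lower in spots rich in oligodendrocyte markers, -0.44; adjusted p = 0.0357). In superficial isocortex Cnr1 ranged from -0.2333 (without replicate 1) to 0.7951 (without replicate 2) and was -0.24 without section 1's sum of that group. Mgll ranged from -0.042 to 0.57 and was -0.033 without that sum; the cause was not tested. Without the section as a block, 17 of 39 calls were lost. The stricter score limit left the midbrain dopamine area too few spots, and at least 10 counts in every sum removed Napepld, so these gave no value. The shares of Dagla in thalamus and fibre tracts moved within their counting intervals, and those of the other groups were not compared in this way. The precision is limited by the number of sections (2), the 45 shallow striatum spots of section 1 and, for Napepld, its 793 and 593 UMIs.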
